A study of Arabidopsis thaliana with 48 samples.

Results

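A set of 6 class III peroxidase genes of Arabidopsis thaliana was followed in roots on medium with the ethylene precursor ACC and on control medium, namely AT5G19890, AT1G49570, Prx37 (AT4G08770), AT4G11290, AT5G64100 and AT5G39580. Each was represented by the 1 probe set annotated to that gene and no other, so that 6 of the 22810 probe sets on the array, and of the 13344 genes with a probe set of their own, were followed. A list of 73 class III peroxidase genes had 55 with a probe set of their own, the 6 genes and 49 others. The 6 genes were selected on their measured ACC minus control differences, for a higher signal on ACC. These differences are therefore given as a description, with standard errors and without a test.

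Class III peroxidases are secreted heme enzymes of a large plant gene family. They use hydrogen peroxide to oxidise phenolic compounds, which cross-links lignin monomers and wall proteins and stiffens the cell wall, and they can also produce reactive oxygen species that loosen it. ACC is the direct precursor of ethylene, a hormone that restrains root elongation and promotes root hairs.

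RNA came from whole roots of 6-day-old seedlings grown in continuous light on a nylon mesh, which was moved to fresh medium without ACC (control) or with 1 µM ACC. Roots were taken at 0 h, which was within 5 minutes of the move, and at 0.5, 1, 2, 4, 8, 12 and 24 h. Each of the 16 groups of medium and time had 3 arrays, 48 in all. The labels name neither a genotype nor an ecotype for any group, and they do not say whether replicates came from separate cultures, so that the spread between arrays may be technical in part. All values are deposited log2 probe set signals, in which a difference of 1 is a 2-fold change, and levels of different genes cannot be compared because probe sets differ in brightness. In whole roots, a change in the number of cells that express a gene cannot be told apart from a change in RNA per cell.

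The array of ACC replicate 3 at 0.5 h lay farthest from its group, with a mean correlation of 0.957 with its 2 partners against a median of 0.983 over the 48 arrays. ACC replicate 3 at 1 h carries ACC in its title but auxin in other labels, and it was kept with ACC. The root gene PYK10, an abundant beta-glucosidase and the 1 measured of 4 root markers, read 13.84 to 14.69 on the arrays after transfer. RCA, the Rubisco activase and the 1 measured of 7 markers of shoot photosynthesis, read 7.24 to 8.19 on the control arrays after transfer and 7.71 to 9.32 on the ACC arrays after transfer, and up to 9.03 on the control arrays at 0 h. None of the listed markers of endodermis, xylem, phloem, root cap or dividing cells could be matched to a probe set of its own, so these cell types were not analysed here. The 3′ minus 5′ signal of the GAPDH control probe sets, a measure of RNA integrity, was on average 0.29 higher on ACC, and higher at 7 of the 7 times after transfer, while a second pair of GAPDH probe sets differed by 0.03.

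AT5G19890, a peroxidase gene on chromosome 5, had the widest separation of the media. On control medium its 24 arrays ranged from 5.66 to 8.12 with a median of 6.03. On ACC its replicates 1, 2 and 3 read 5.75, 6.48 and 6.88 at 0 h, 6.90, 6.31 and 5.56 at 0.5 h, 5.63, 8.66 and 6.89 at 1 h, then 7.04, 10.42 and 6.79 at 2 h. On control medium they read 5.98, 6.47 and 6.03 at 0 h, 5.91, 5.66 and 6.11 at 0.5 h, 5.94, 5.95 and 6.04 at 1 h, then 5.75, 7.39 and 5.80 at 2 h. ACC replicate 2 thus stood alone at 1 and 2 h, and the media overlapped at all 4 of these times. From 4 h on, every ACC array lay above every control array of its time. The ACC replicates read 11.67, 8.90 and 11.07 at 4 h, 10.67, 10.68 and 11.63 at 8 h, 10.87, 11.15 and 12.27 at 12 h, then 10.51, 10.38 and 11.88 at 24 h. The matching control replicates read 6.20, 8.12 and 6.69 at 4 h, 6.09, 5.87 and 6.22 at 8 h, 5.92, 7.41 and 5.92 at 12 h, then 5.96, 6.29 and 6.16 at 24 h. The gap was narrowest at 4 h, where replicate 2 was the lowest ACC array and also the highest control array. The difference was 3.55 ± 0.71 (SE, 3 arrays per group) at 4 h, 4.94 at 8 h, 5.01 at 12 h and 4.79 at 24 h, and the highest of these is a 32.3-fold difference. AT5G19890 had thus reached more than 50% of its peak difference at 4 h and kept 95.5% of it at 24 h. Its control median lay below the median of all probe sets on each array, which was 7.43 to 7.64. Signal over background was not analysed here, so the 32.3-fold value depends on a low control signal. Without ACC replicate 2, the difference at 2 h was 0.60 in place of 1.77, and at 1 h 0.28 in place of 1.09.

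AT1G49570, a peroxidase gene on chromosome 1, separated without overlap from 8 h on and had its largest difference at the last time. Its control arrays ranged from 6.60 to 9.80 with a median of 7.62. At 0 h the ACC replicates read 7.12, 8.56 and 8.46 and the control replicates 7.91, 9.59 and 7.20, and at 1 h they read 6.94, 9.98 and 7.97 against 7.73, 7.46 and 7.98. The media overlapped at both times. On ACC the replicates read 6.96, 10.14 and 7.80 at 2 h and 10.50, 7.89 and 10.62 at 4 h, against control values of 6.96, 7.60 and 7.24 at 2 h and 7.93, 9.45 and 8.10 at 4 h. Replicate 2 was the highest ACC array at 2 h and the lowest at 4 h, where the media overlapped. On ACC the replicates then read 9.63, 10.21 and 11.77 at 8 h, 11.52, 10.79 and 12.34 at 12 h, then 11.02, 11.22 and 12.18 at 24 h. The control replicates read 8.06, 8.26 and 7.12 at 8 h, 7.32, 9.80 and 7.12 at 12 h, then 6.60, 7.10 and 7.67 at 24 h, and none of them reached an ACC array of the same time. The difference was 1.18 ± 0.77 (SE, 3 arrays per group) at 4 h, 2.72 at 8 h, 3.47 at 12 h and 4.35 at 24 h, the last a 20.4-fold difference. With arrays left out, the 4 h value ranged from 0.48 to 2.55, the highest without replicate 2 in both media. An earlier separation at 0.5 h, with ACC replicates at 7.98, 8.46 and 7.83 above control replicates at 7.64, 7.23 and 7.30, was not kept at 1 h.

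**Figure D1:**
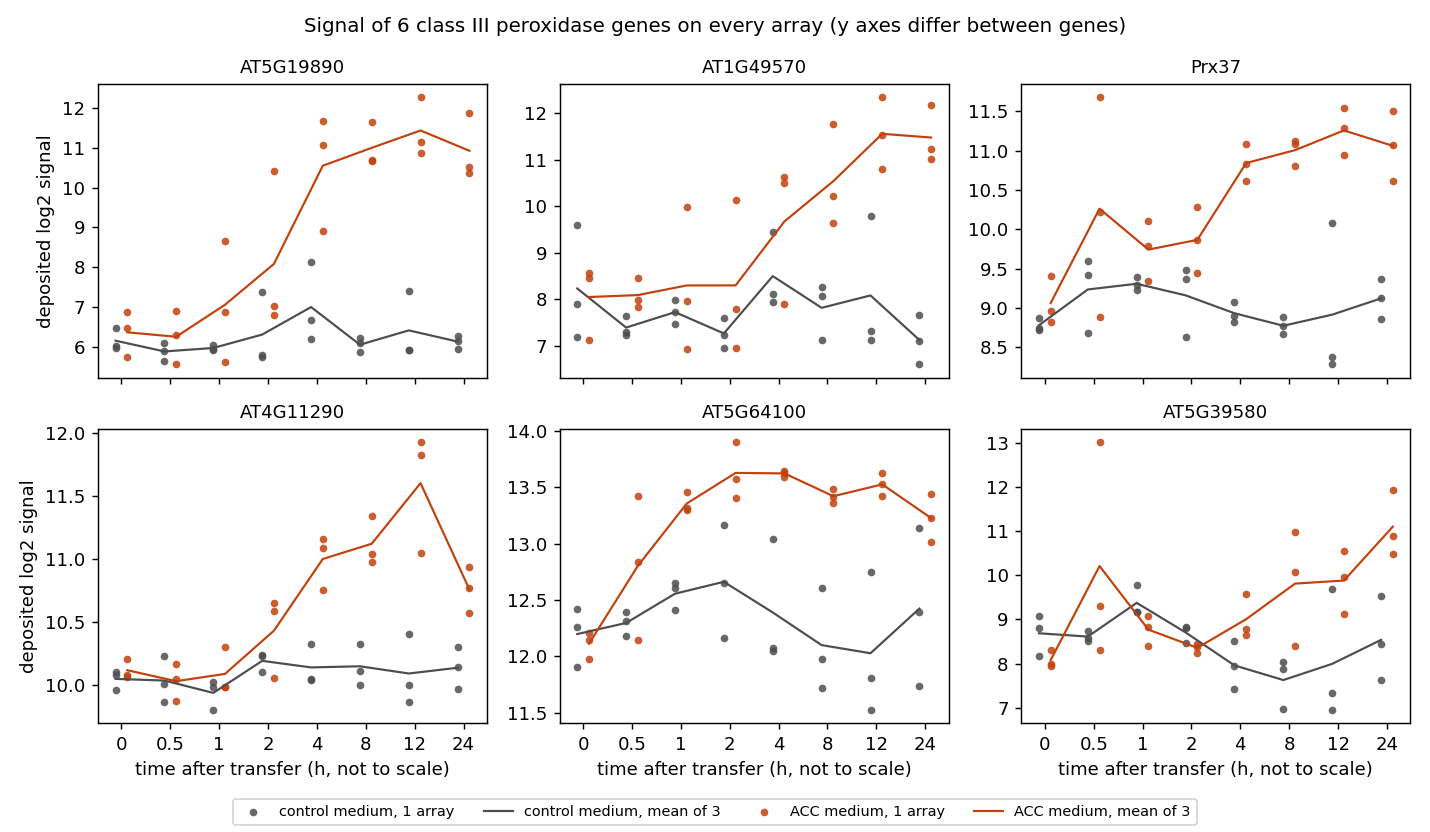
Log2 probe set signal of the 6 peroxidase genes on every array (y axis, own range for each gene) against hours after transfer (x axis, evenly spaced), with points for arrays and lines through the means of the 3 arrays of control and ACC medium. For AT5G19890 the ACC arrays lie between 8.90 and 12.27 from 4 h on, and the single ACC array at 10.42 at 2 h is replicate 2.

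Prx37, a peroxidase gene whose overexpression is known to reduce plant growth, lies on chromosome 4 and separated from 4 h on. Its control arrays ranged from 8.28 to 10.08 with a median of 8.89. On ACC the replicates read 9.40, 8.82 and 8.96 at 0 h, 9.34, 9.78 and 10.10 at 1 h, then 9.87, 10.29 and 9.44 at 2 h. On control medium they read 8.87, 8.75 and 8.72 at 0 h, 9.23, 9.30 and 9.40 at 1 h, then 9.37, 9.48 and 8.63 at 2 h. The media were apart by 0.28, 0.44 and 0.71 at these times, and 1 or more ACC arrays at 1 and 2 h lay within the control range. On ACC the replicates read 10.83, 10.62 and 11.08 at 4 h, 10.81, 11.09 and 11.12 at 8 h, 10.95, 11.29 and 11.54 at 12 h, then 11.07, 10.61 and 11.51 at 24 h. The control replicates read 8.82, 9.08 and 8.89 at 4 h, 8.88, 8.77 and 8.67 at 8 h, 8.38, 10.08 and 8.28 at 12 h, then 8.86, 9.37 and 9.13 at 24 h. The media did not overlap at any of these 4 times, and control replicate 2 at 12 h came nearest to the ACC arrays. The difference was 1.91 ± 0.40 (SE, 3 arrays per group) at 4 h, 2.24 at 8 h, 2.34 at 12 h and 1.94 at 24 h, and the 12 h value is a 5.08-fold difference. At 0.5 h the ACC replicates read 10.22, 8.88 and 11.68 and overlapped the control, and without ACC replicate 3, the array farthest from its group, the difference was 0.32 in place of 1.03, against control replicates at 9.60, 8.68 and 9.42.

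AT5G39580, a peroxidase gene on chromosome 5 that has been linked to root hair growth, had its higher signal on ACC from 4 h on. On control medium it ranged from 6.96 to 9.79 with a median of 8.52. At 0 h the ACC replicates read 8.32, 7.94 and 7.99 and the control replicates 8.81, 8.17 and 9.08, a difference of -0.61 within minutes of the move. The ACC replicates read 9.31, 8.31 and 13.01 at 0.5 h, 8.82, 8.40 and 9.09 at 1 h, then 8.38, 8.24 and 8.45 at 2 h. The control replicates read 8.59, 8.51 and 8.74 at 0.5 h, 9.79, 9.17 and 9.17 at 1 h, then 8.48, 8.84 and 8.81 at 2 h. At 1 and 2 h every ACC array thus lay below every control array, by 0.61 and 0.35 on average with a standard error of 0.71, an order that 5.61% and 4.2% of all probe sets had at those times. With the GAPDH value as a covariate, the difference at 1 h was -0.97 in place of -0.61. The value of 13.01 came from the array farthest from its group, and the difference at 0.5 h was 1.60 with it and 0.19 without it.

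The same gene was higher on ACC later. On ACC, AT5G39580 read 9.59, 8.66 and 8.78 at 4 h, 10.07, 10.97 and 8.40 at 8 h, 9.11, 9.97 and 10.56 at 12 h, then 10.49, 10.89 and 11.93 at 24 h. Its control replicates read 7.42, 7.94 and 8.52 at 4 h, 8.05, 7.87 and 6.97 at 8 h, 7.34, 9.69 and 6.96 at 12 h, then 7.64, 9.54 and 8.44 at 24 h. The media overlapped at 12 h, through control replicate 2, and did not at 4, 8 and 24 h. The difference was 1.05 ± 0.71 (SE, 3 arrays per group) at 4 h, 2.18 at 8 h, 1.89 at 12 h and 2.56 at 24 h, and the 24 h value is a 5.90-fold difference. With arrays left out, it ranged from 0.49 to 1.44 at 4 h and from 1.03 to 2.73 at 12 h, where it was 2.73 without control replicate 2.

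AT4G11290, a peroxidase gene on chromosome 4 known as one of those repressed by the transcription factor UPBEAT1 where root cells begin to elongate, varied least between arrays. Its 24 control arrays lay between 9.81 and 10.41. On ACC the replicates read 11.16, 10.76 and 11.09 at 4 h, 11.05, 10.98 and 11.35 at 8 h, 11.05, 11.83 and 11.93 at 12 h, then 10.77, 10.57 and 10.94 at 24 h. All 12 of these arrays lay above the highest control array of any time, while the ACC arrays at 0, 0.5 and 1 h stayed between 9.88 and 10.30. At 2 h the ACC replicates, at 10.06, 10.59 and 10.65, still overlapped the control replicates at 10.24, 10.24 and 10.10. The control replicates read 10.05, 10.04 and 10.33 at 4 h, 10.12, 10.01 and 10.33 at 8 h, 9.87, 10.003 and 10.41 at 12 h, then 9.97, 10.30 and 10.15 at 24 h. The difference was 0.86 ± 0.17 (SE, 3 arrays per group) at 4 h, 0.97 at 8 h, 1.51 at 12 h and 0.62 at 24 h, so that 41.1% of its peak was left at 24 h. The 12 h value is a 2.85-fold difference.

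AT5G64100, a peroxidase gene on chromosome 5, was higher on ACC from 1 to 12 h without overlap. Its control arrays ranged from 11.53 to 13.17 with a median of 12.36. At 0 h the ACC replicates read 11.98, 12.15 and 12.21 and the control replicates 12.27, 11.91 and 12.42, and at 0.5 h they read 12.84, 12.15 and 13.42 against 12.32, 12.18 and 12.39. The media overlapped at both times, and the ACC array at 13.42 is replicate 3. The ACC replicates read 13.30, 13.45 and 13.31 at 1 h against control values of 12.41, 12.65 and 12.61. They read 13.40, 13.90 and 13.58 at 2 h, 13.59, 13.63 and 13.65 at 4 h, 13.36, 13.41 and 13.49 at 8 h, then 13.42, 13.53 and 13.62 at 12 h. On control medium they read 12.65, 13.17 and 12.17 at 2 h, 12.05, 12.08 and 13.04 at 4 h, 11.98, 11.72 and 12.60 at 8 h, then 11.53, 11.81 and 12.75 at 12 h. The media did not overlap from 1 to 12 h, and the ACC arrays of these times lay within a narrow band while control arrays spread more widely. At 24 h the ACC replicates read 13.01, 13.23 and 13.44, and control replicate 2, at 13.13 beside 11.74 and 12.40, lay above the lowest of them. The difference was 0.80 ± 0.30 (SE, 3 arrays per group) at 1 h, 0.97 at 2 h, 1.23 at 4 h, 1.32 at 8 h, 1.50 at 12 h and 0.80 at 24 h, and the 12 h value is a 2.82-fold difference. The mean on ACC itself was highest at 2 h, at 13.63.

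**Figure D2:**
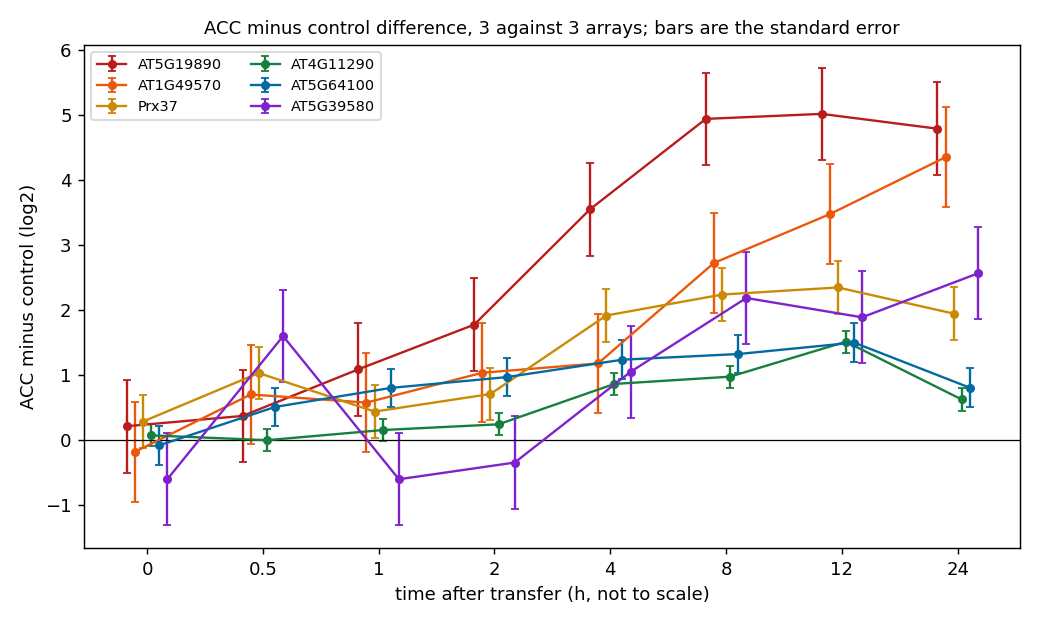
Difference of the mean log2 signal, ACC minus control (y axis, error bars are limma standard errors), for the 6 peroxidase genes at each time in hours (x axis, evenly spaced). AT5G19890 reaches 3.55 at 4 h and stays between 4.79 and 5.01 afterwards, while AT1G49570 climbs to 4.35 at 24 h.

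At 4 h all 3 ACC arrays lay above all 3 control arrays in 5 of the 6 genes, an order that 9.21% of all probe sets had at that time. At 8 h this held for all 6 (11.6% of all probe sets), at 12 h for 5 (11.8%) and at 24 h for 5 (9.75%). Before 4 h it held for AT1G49570 alone at 0.5 h (4.98% of all probe sets) and for AT5G64100 alone at 1 h (5.98%) and 2 h (5.09%), and at 0 h for none of the 6 (3.88%). An order that then lasted to 24 h began at 4 h in AT5G19890, Prx37 and AT4G11290, as in 2.13% of all probe sets, at 8 h in AT1G49570 (3.35% of all probe sets) and at 24 h in AT5G39580. AT5G64100 had no lasting order because of the overlap at 24 h. These counts follow from how the genes were chosen, and nothing is read from their excess over all probe sets.

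The first time at 50% of the peak difference was 1 h for AT5G64100, 4 h for AT5G19890, Prx37 and AT4G11290, and 8 h for AT1G49570. AT5G39580 passed that level at 0.5 h with the array farthest from its group, and at 8 h without it. AT5G19890 kept its time under every alternative computed, and the others did not. For AT5G64100 the time was 2 h with quantile normalization, without control replicate 1 at 1 h or without control replicate 3 at 12 h, 4 h with array weights or without replicate 3, and 0.5 h without replicate 2 or without ACC replicate 2 at 0.5 h. For AT1G49570 it was 4 h without replicate 2, and 12 h with array weights, without replicate 3 or without ACC replicate 3 at 8 h. For Prx37 it was 0.5 h without replicate 1, or without control replicate 1 or ACC replicate 2 at 0.5 h. For AT4G11290 it was 8 h without replicate 1 or without ACC replicate 1 at 12 h. AT5G39580 also moved to 8 h with array weights and to 4 h without replicate 3. The order of onset among the 6 genes is therefore not fixed by these arrays, and only the time of AT5G19890 itself did not move. Ordered by peak size, the difference was 5.01 for AT5G19890, 4.35 for AT1G49570, 2.56 for AT5G39580, 2.34 for Prx37, 1.51 for AT4G11290 and 1.50 for AT5G64100. The gap between neighbours in this order was less than the sum of their standard errors for AT5G19890 and AT1G49570 (0.67), for AT5G39580 and Prx37 (0.22), and for AT4G11290 and AT5G64100 (0.01). It was more than that sum between AT1G49570 and AT5G39580 (1.79) and between Prx37 and AT4G11290 (0.83). At 24 h, 41.1% of the peak was left in AT4G11290, 53.6% in AT5G64100 and 82.8% in Prx37. Leaving out 1 array at a time, or 1 replicate number, kept the peak difference between 4.35 and 5.65 for AT5G19890, between 3.99 and 4.62 for AT1G49570, between 1.89 and 2.93 for Prx37, between 1.35 and 1.79 for AT4G11290, between 1.25 and 1.86 for AT5G64100 and between 2.097 and 3.17 for AT5G39580.

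**Figure D3:**
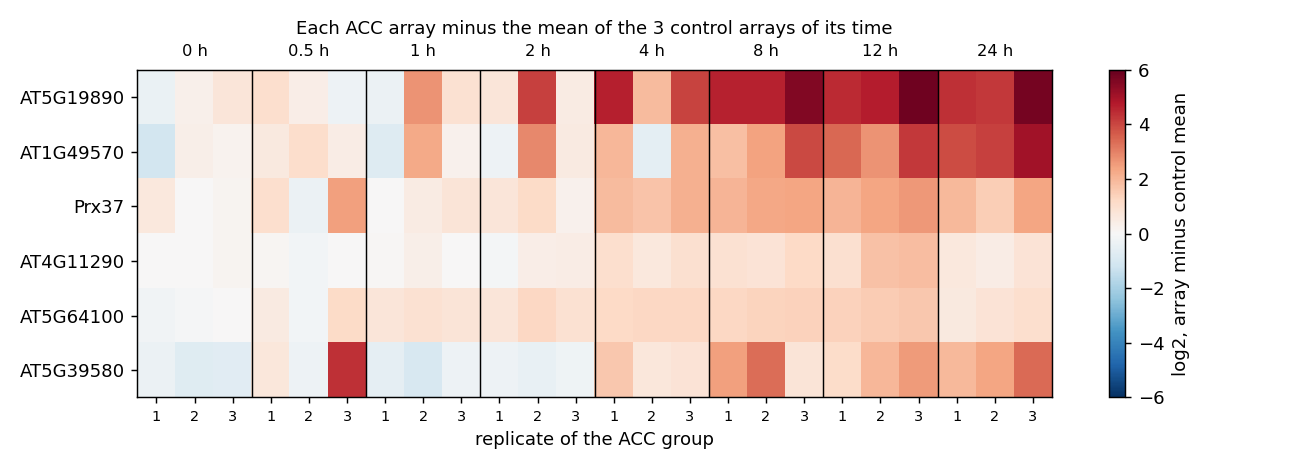
Heat map of the signal of each ACC array minus the mean of the 3 control arrays of the same time (colour, log2, red above and blue below), with the 6 peroxidase genes as rows and the 24 ACC arrays as columns, ordered by time in hours and replicate number. ACC replicate 2 at 2 h lies 4.11 above the control mean in AT5G19890, and ACC replicate 3 at 0.5 h lies 4.40 above it in AT5G39580.

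The replicate arrays of these genes were spread unequally. The residual standard deviation over all 48 arrays was 0.99 for AT1G49570, 0.92 for AT5G19890 and 0.92 for AT5G39580, and 0.52, 0.38 and 0.21 for Prx37, AT5G64100 and AT4G11290, against a median of 0.17 over all probe sets. The early signal of AT5G19890 and AT1G49570 moved together on single arrays. On ACC replicate 2, AT5G19890 lay 2.69 above the control mean at 1 h and 4.11 above it at 2 h, and AT1G49570 lay 2.26 and 2.87 above it. At 4 h the same replicate number was the lowest of the 3 in both genes, 1.90 above the control mean in AT5G19890 and 0.61 below it in AT1G49570. This was not particular to the pair. At 4 h ACC replicate 2 was also the lowest in Prx37, AT4G11290 and AT5G39580, at 1.69, 0.61 and 0.70 above the control mean. In AT5G64100 it was the highest at 1 and 2 h. The highest array of the group was ACC replicate 3 in 6 of the 6 genes at 12 h and at 24 h. The share of all probe sets that were highest on that array was not computed, so nothing is read from this count.

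The change with time on control medium was not itself a criterion for choosing the genes, although the same control arrays entered the differences they were selected on. By limma's F test over the 7 times against 0 h, 0 of the 6 genes changed on control medium, and 0% of all 22739 probe sets passed the same test at an adjusted p of 0.05. At an unadjusted p under 0.05, 529 probe sets (2.33%) would have been counted, none of the 6 genes among them. The unadjusted F-test p by limma was lowest in AT5G39580, at 0.32 (adjusted p = 1), where the control mean was 1.06 ± 0.71 lower at 8 h than at 0 h. AT1G49570 had the next widest range of control means, 1.37, and its control mean at 24 h was 1.11 ± 0.77 below 0 h. The control means of AT4G11290 stayed within 0.26 of each other. Values that did not pass this test are not shown to have been constant, and the standard errors of these differences were 0.71 to 0.77 in AT5G19890, AT1G49570 and AT5G39580. The same count of 0 of 6 was found under every alternative computed. In the main fit the lowest adjusted p of any probe set by limma's F test was 0.59. The count therefore tells nothing particular to these 6 genes.

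Of the 6 genes, AT5G64100, Prx37 and AT5G19890 lie within 2 genes of another class III peroxidase gene, by the RefSeq gene order of the TAIR10.1 assembly. AT5G64100 neighbours AT5G64110 and AT5G64120, the latter a peroxidase known to stiffen cell walls. Of these, AT5G64110 rose on ACC, from 6.86 on control medium to 9.34 on ACC at 12 h, a difference of 2.48 ± 0.36 (limma adjusted p = 1.69e-05). On ACC its replicates read 9.59, 9.37 and 9.07 at 12 h and on control medium 6.39, 7.01 and 7.17, and it was higher at 4, 8, 12 and 24 h. AT5G64120 did not pass the test (1.32 ± 0.46 at 12 h, limma adjusted p = 0.0993). AT4G08780, beside Prx37, did not either (1.44 ± 0.51 at 12 h, limma adjusted p = 0.0997). AT5G19880, beside AT5G19890, differed by -0.39 ± 0.25 at 1 h (limma adjusted p = 0.743). Neighbours that are near-identical in sequence can share signal on a probe set, which could not be checked here. AT1G49570, AT4G11290 and AT5G39580 have no such neighbour.

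**Figure D4:**
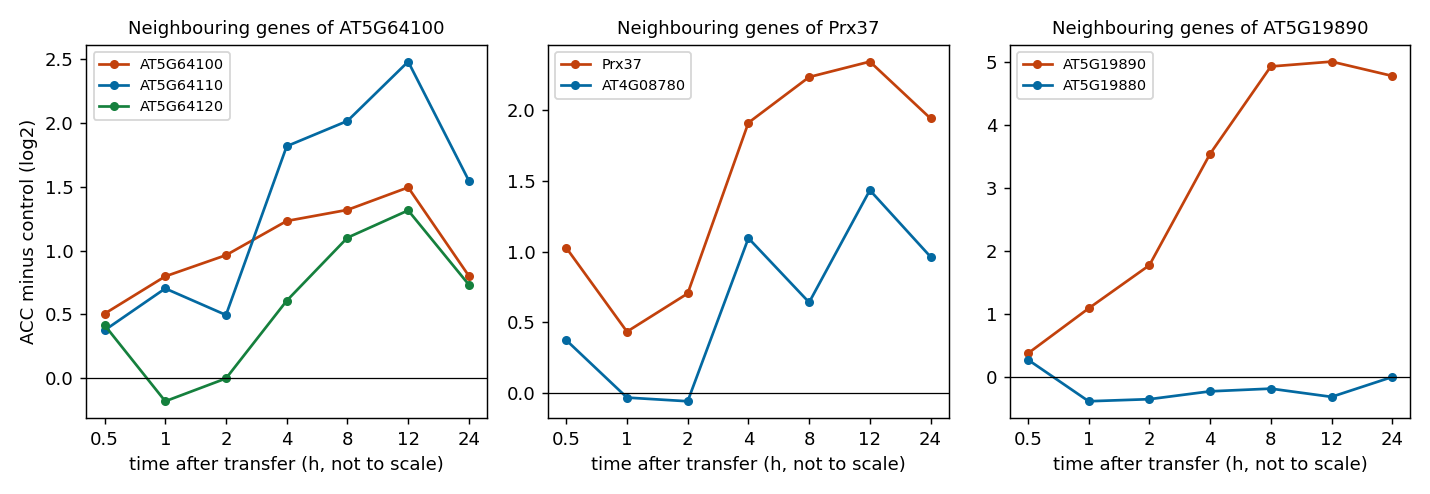
ACC minus control difference of log2 signal (y axis, own range for each panel) against hours after transfer (x axis, evenly spaced) for AT5G64100, Prx37 and AT5G19890 (orange) and the class III peroxidase genes within 2 genes of them. AT5G64110 peaks at 2.48 at 12 h, above its neighbour AT5G64100 at 1.50, while the largest difference of AT5G19880, beside AT5G19890, is -0.39.

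The 49 other class III peroxidase genes moved in both directions. By limma's F test over the 7 times, 18 of the 49 (36.7%) changed on ACC, against 13.3% of all probe sets. At 1 or more single times 5 of the 49 (10.2%) rose, against 5.11% of all probe sets, and 7 (14.3%) fell, against 5.26%. With array weights these counts were 15 and 12, and 8 passed the F test without replicate 1, 10 without replicate 2 and 10 with the GAPDH covariate. The shares of all probe sets were not computed under these alternatives. Their median peak difference was 0.14, against -0.12 over all probe sets, and 31 of the 49 did not pass the F test. At 2 h 1 gene was lower (0.119% of all probe sets). At 4 h 2 were higher and 2 lower (2.06% and 2.12% of all probe sets), and at 8 h 3 and 2 (2.42% and 2.48%). At 12 h 4 were higher and 3 lower (2.89% and 2.53%), and at 24 h 5 and 6 (2.22% and 3.22%). The 5 that rose peaked at 12 or 24 h.

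AT3G03670 rose by 2.22 ± 0.34 at 24 h (limma adjusted p = 5.18e-05), with ACC replicates at 9.07, 7.47 and 9.11 and control replicates at 6.13, 6.67 and 6.18. AT1G71695 rose by 1.77 ± 0.26 at 24 h (limma adjusted p = 2.63e-05) and was higher at 4, 8, 12 and 24 h, the same times as AT5G64110. AT3G49960, known from root hair cells, rose by 1.67 ± 0.46 at 24 h (limma adjusted p = 0.0247), and lost that call when any array of that time other than control replicate 2 was left out (adjusted p from 0.00892 to 0.219 over all alternatives). Beside it, AT4G26010, also known from root hair cells, passed the F test but no single time, with 1.19 ± 0.42 at 24 h (limma adjusted p = 0.0969). PRXR1 rose by 0.53 ± 0.14 at 12 h (limma adjusted p = 0.0176), and lost the call without control replicate 1 or 2 or ACC replicate 2 or 3 of that time (adjusted p from 3.38e-06 to 0.414 over all alternatives). None of these 5 reached the peak size of AT5G19890 or AT1G49570.

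Among the 7 that fell, AT2G18980 was lower at 2, 4, 8, 12 and 24 h, and its largest difference was -0.97 ± 0.15 at 4 h (limma adjusted p = 5.59e-05). On ACC it read 10.72, 10.72 and 10.73 at 4 h, and on control medium 11.61, 11.59 and 11.87. AT2G35380 fell by 1.68 ± 0.22 at 24 h (limma adjusted p = 3.11e-06), where ACC replicates read 7.93, 9.14 and 8.33 and control replicates 10.61, 9.79 and 10.05. AT5G51890, known from developing xylem vessels, fell by 1.32 ± 0.16 at 24 h (limma adjusted p = 1.57e-06), with ACC replicates at 9.06, 9.18 and 8.90 and control replicates at 10.40, 10.16 and 10.54. AT5G66390, a peroxidase of lignin formation, was lower at 8, 12 and 24 h and fell by 1.02 ± 0.18 at 24 h (limma adjusted p = 0.000407). These 4 genes and AT3G03670 kept the call at the time of their largest difference under every alternative computed, and their calls at other times were not put to these alternatives.

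The other 3 genes that fell passed at 1 time each and lost that call without single arrays. AT5G15180 was lower at 4 h by -1.35 ± 0.34 (limma adjusted p = 0.0129), a call lost without ACC replicate 1 or control replicate 3 of that time (adjusted p from 0.000668 to 0.395 over all alternatives). AT1G68850 was lower at 24 h by -1.03 ± 0.25 (limma adjusted p = 0.0088), a call lost without control replicate 1, ACC replicate 1 or ACC replicate 3 (adjusted p from 0.000441 to 0.549 over all alternatives). AT3G01190 was lower at 24 h by -0.93 ± 0.22 (limma adjusted p = 0.00865), a call lost without control replicate 2 (adjusted p from 0.00142 to 0.116 over all alternatives). AT1G30870, known from root hair cells, passed the F test with its largest difference at 0.5 h, -1.0 ± 0.34 (limma adjusted p = 0.184). Without ACC replicate 3 at 0.5 h, the array farthest from its group, that difference was -0.63, and the differences from 1 h on were positive, up to 0.85 at 4 h.

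**Figure D5:**
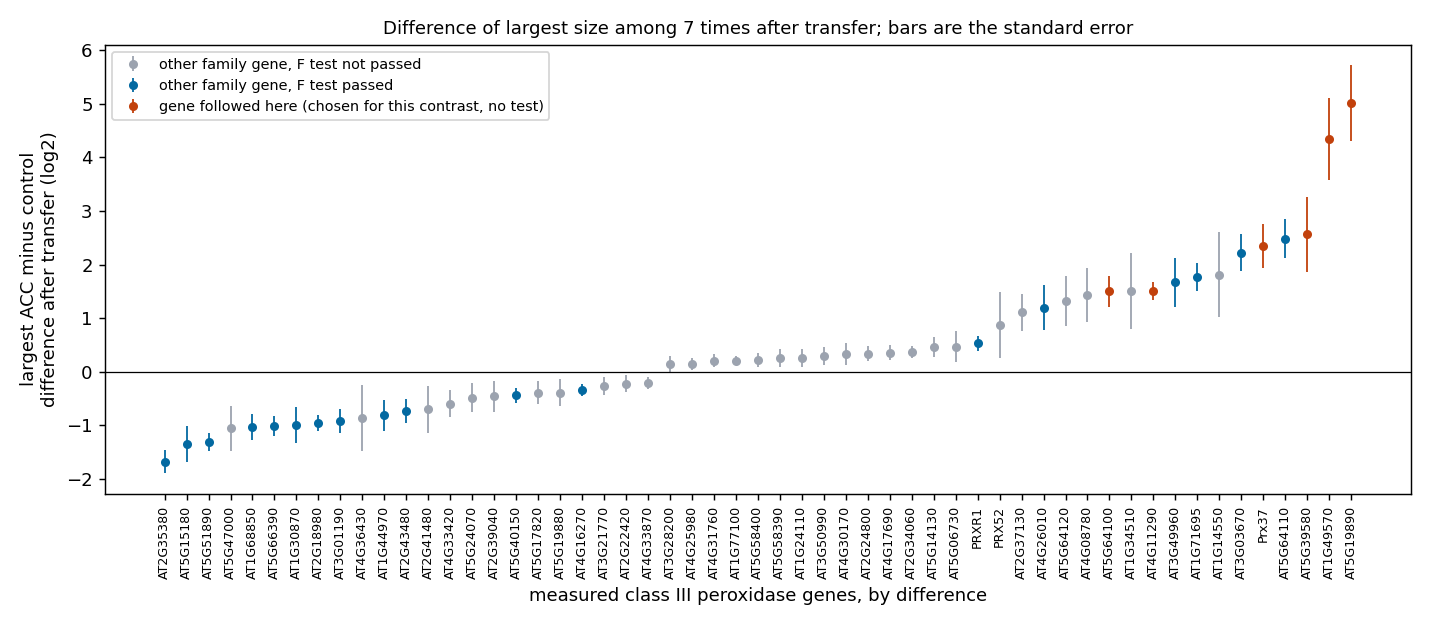
Peak ACC minus control difference of log2 signal (y axis, bars are limma standard errors) of the 55 measured class III peroxidase genes (x axis, ordered by difference), with the 6 followed genes in orange and the 49 others in blue or grey, as they passed the F test or not. The 49 others range from -1.68 to 2.48, and AT5G19890 and AT1G49570 lie beyond that range at 5.01 and 4.35.

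Genes of processes that supply or use peroxidase reactions were measured only in part. Of the extensins, wall glycoproteins that peroxidases cross-link, 9 of 16 listed genes had a probe set of their own, and 2 of the 9 rose at 1 or more times, against 5.11% of all probe sets. The probe sets of HRGP1, AT5G06630, AT4G08410 and AT1G23720 are of a type that can match more than 1 gene. AT1G26250 rose by 3.41 ± 0.72 at 24 h (limma adjusted p = 0.00238) and was higher at 4, 8, 12 and 24 h. At 24 h its ACC replicates read 11.58, 9.61 and 10.62 and its control replicates 6.29, 8.70 and 6.58. AT1G26240 rose by 2.31 ± 0.49 at 24 h (limma adjusted p = 0.00269). Both extensins lost that call without replicate 1 (adjusted p = 0.28 and 0.179, the highest over all alternatives). A further extensin, AT4G08410, passed the F test but no single time (1.06 ± 0.36 at 8 h, limma adjusted p = 0.0801).

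Of the NADPH oxidases, which make the superoxide that gives hydrogen peroxide, 3 of 10 were measured, and AT4G11230 rose by 0.70 ± 0.20 at 24 h (limma adjusted p = 0.0272). That call was lost without control replicate 1, control replicate 3 or ACC replicate 3 of that time, and with the GAPDH covariate (adjusted p from 0.00625 to 0.183 over all alternatives). It was also lost without replicate 1, 2 or 3 throughout (limma adjusted p = 0.183, 0.0886 and 0.179). Its signal was low, 6.09 on control medium and 6.79 on ACC at 24 h, and it did not pass the filter on low values. LAC16, the 1 measured of 17 laccases, which like peroxidases oxidise lignin monomers, fell by 0.87 ± 0.18 at 4 h (limma adjusted p = 0.00202) and was lower at 4, 8 and 12 h. Neither of the 2 measured of 18 monolignol synthesis genes, HCT and CCR2, passed the test, and neither of the 2 measured of 19 genes of peroxide removal inside cells, SAPX and TAPX. Over the 5 lists, 5 of 17 genes passed the F test, 3 rose and 1 fell at 1 or more times, against 13.3%, 5.11% and 5.26% of all probe sets, with a median peak of 0.62 against -0.12. Without control replicate 1 at 8 h, ACC replicate 2 at 8 h or control replicate 3 at 24 h, 3 passed the F test, and without control replicate 3 at 2 h 5 rose.

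Markers of root hairs, root and shoot were followed beside these genes. EXPA7 and EXPA18, root hair expansins and the 2 measured of 11 root hair markers, had their largest differences at 0.5 h, -1.02 ± 0.37 and -1.08 ± 0.37 (limma adjusted p = 0.213 and 0.192). EXPA7 passed the F test over the 7 times (limma adjusted p = 0.0307) but no single time, and EXPA18 did not pass it (limma adjusted p = 0.0547). From 1 to 24 h both markers had positive differences, 0.43 to 0.96 in EXPA7 and 0.42 to 0.85 in EXPA18. Of the 6 followed genes, 5 had positive differences at 0.5, 1 and 2 h, and all 6 did from 4 h on. The exceptions were AT4G11290 at 0.5 h, at -0.005, and AT5G39580 at 1 and 2 h, at -0.61 and -0.35. On the array of ACC replicate 3 at 0.5 h, the one farthest from its group, EXPA7 and EXPA18 read 6.73 and 7.43. ACC replicates 1 and 2 read 9.23 and 8.13 in EXPA7 and 9.27 and 8.07 in EXPA18. The largest differences of both markers thus rest in part on 1 array. AT5G39580 and Prx37 read 13.01 and 11.68 on that array. The summed root hair signal after transfer ranged from 17.00 to 20.37 on 21 control arrays and from 14.16 to 21.01 on 21 ACC arrays. RCA rose by 1.32 ± 0.29 at 12 h (limma adjusted p = 0.00285), the time of the peak in AT5G19890, Prx37, AT4G11290 and AT5G64100. PYK10 did not pass the test (0.31 ± 0.15 at 1 h, limma adjusted p = 0.612). The part of these markers in the results was not tested. With the GAPDH value of each array as a covariate, the peak difference was 5.01 in AT5G19890, 4.68 in AT1G49570, 2.34 in Prx37, 1.59 in AT4G11290, 1.54 in AT5G64100 and 2.12 in AT5G39580.

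The genes whose 16 group means ran most like those of each followed gene were found by Pearson's r, as a description, over points that share the 2 media and the 8 times. AT5G19890 was nearest to AT4G39675 (r = 0.986), AT4G32870 (0.984) and AT1G21320 (0.975). AT1G49570 was nearest to AT5G59540 (0.953), AT1G78460 (0.945) and AT5G13140 (0.944). Prx37 was nearest to AT4G18250 (0.972), AT2G31820 (0.968) and AT3G28850 (0.967). AT4G11290 was nearest to AT1G04000 (0.978), AT3G01690 (0.977) and AT1G21320 (0.965), the last of which it shared with AT5G19890. AT5G64100 was nearest to AT1G51790 (0.980), MYBC1 (0.965) and AT5G62280 (0.962), and AT5G39580 to AT1G72900 (0.974), the beta-glucosidase gene BGLU46 (0.954) and AT4G35110 (0.953). None of these is a class III peroxidase gene. Only 49 other genes of that family were measured, among 13507 probe sets with 1 gene symbol, so nothing is read from this. Among the 6 genes themselves, r ran from 0.50 for AT4G11290 with AT5G39580 to 0.95 for AT5G19890 with AT4G11290.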

How the data were processed

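RNA from roots was measured on 48 Affymetrix arrays; per the labels' protocols about 5 µg of total RNA was labelled by priming at the 3′ end. The authors deposited log2 values, 1 per probe set and array. Their log base, probe summary and scaling between arrays were not given in the sources used here, and the base was read from the range of values. Control probe sets (64) and 7 probe sets with an exact 0 were left out, leaving 22739. Names came from the platform annotation, updated through a RefSeq table of the TAIR10.1 assembly. That annotation listed no gene for 8730 probe sets and several for 503.

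limma 3.58.1 in R 4.3.3 was fitted with 1 mean per group of medium and time over all 48 arrays (32 residual degrees of freedom). Adjusted p is Benjamini-Hochberg over all probe sets at a threshold of 0.05, from moderated contrasts or F tests. The number of arrays limits the precision, with a median standard error of 0.14 per contrast. Scripts were tested on simulated data.

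The 6 genes and the gene lists were chosen with earlier results of these data known. Named genes were the 6, the other peroxidases past the F test with the 8 largest positive and the 8 largest negative peak differences, up to 4 genes past it in each companion list, and the 3 most correlated genes of each of the 6. The negative-peak genes AT1G44970, AT2G43480, AT4G16270 and AT5G40150 passed the F test and are not among those named. Alternatives were normalization, a filter on low values, the variance prior, array weights, a replicate block, a GAPDH covariate and arrays left out; leaving out single arrays for the counts, and the array farthest from its group, was chosen after seeing the data. Sequences were not used here.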

Additional observations from a re-analysis of the deposited data

Results flagged for a closer look

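The effect of ACC differed between the 7 times after transfer in 5 of the other peroxidase genes by limma's F test of that difference, which 0.699% of all probe sets passed. The adjusted p was 0.0278 for AT1G71695, 0.00818 for AT2G35380, 0.0473 for AT3G03670, 0.00115 for AT5G51890 and 0.0179 for AT5G66390. In AT2G35380 the difference between the media was -0.01 at 4 h and -1.68 at 24 h, and in AT3G03670 it was 1.00 at 4 h and 2.22 at 24 h. For the 6 followed genes no result of this test is given, because they were chosen for the same contrast.

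Probe sets annotated to more than 1 gene were left out of the comparisons, and 2 of the 4 that match class III peroxidase genes passed limma's F test over the 7 times, which 13.3% of all probe sets passed. The first was lower on ACC by -1.63 ± 0.55 at 8 h (limma adjusted p = 0.0858 for that time, 0.034 for the F test). The second was higher by 0.72 ± 0.15 at 12 h (limma adjusted p = 0.00223). The gene behind each signal cannot be told apart.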

How the results depend on the processing

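The peak differences of the 6 followed genes kept their direction under every alternative computed. On control medium 0 of 6 passed the F test under each, a test that 0% of all probe sets passed in the main fit. Quantile normalization, a filter on low values (passed by 6 of the 6 genes), another variance prior and leaving out the auxin-labelled array moved no count by more than 1.5 times. Array weights gave 15 other peroxidase genes higher and 12 lower, in place of 5 and 7, and 5 companion genes higher in place of 3. Shares over all probe sets were not computed under array weights or the other alternatives, so it is not known whether they moved too. With the GAPDH covariate, 10 other peroxidase genes passed the F test in place of 18, and 2 companion genes in place of 5. With 1 array or 1 replicate number left out, the other peroxidase genes past the F test ranged from 8 to 20, those higher from 2 to 7 and those lower from 5 to 10, with the fewest past the F test without replicate 1 (8) and replicate 2 (10). The companion genes ranged from 1 to 6 past the F test, 0 to 5 higher and 0 to 1 lower. Without replicate 1 these were 1, 0 and 0, without replicate 2 there were 3 past the F test and 0 lower, and 3 passed it without replicate 3, without control replicate 1 or ACC replicate 2 at 8 h and without control replicate 3 at 24 h. Without control replicate 3 at 2 h, 5 were higher. Leaving out a replicate number leaves 2 arrays per group in place of 3, so those fits are less precise. The cause of these changes was not tested. Without replicate 1, AT5G64110 and AT1G71695 lost their call (adjusted p = 0.0562 and 0.0541, from 3.03e-08 and 2.82e-06 upwards over all alternatives), as did AT1G26250, AT1G26240 and LAC16 (0.28, 0.179 and 0.0755, from 0.000506, 0.000282 and 0.000373 upwards), and LAC16 also lost it without replicate 2 (0.0903). The replicate block gave 18, 6 and 7 other peroxidase genes past the F test, higher and lower, 6, 4 and 1 companion genes, and 0 of 6 on control medium. The labels give no shared source for a replicate number, so the numbers were not taken as pairs. After each group mean was subtracted, same-numbered arrays of the 2 media at the same time correlated above 0.1 in 16 of 24 pairs. Of the 48 arrays, 31 correlated best with their own number among the 3 arrays of the other medium at that time. The correlations of the 24 pairs ran from -0.265 to 0.41. By chance alone, 1 in 3 arrays would correlate best with its own number. Same-numbered arrays may share something, but this was not tested. Signal over background was not analysed here.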
